A study of Rattus norvegicus with 4 samples.

Results

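Syndecans and glypicans are the heparan sulfate proteoglycans of the cell surface, and 9 genes of this system were followed in ribosome footprints of neonatal rat heart muscle cells after knockdown of Cpeb4. The genes were the syndecans Sdc1, Sdc2, Sdc3 and Sdc4, the syndecan adaptor Sdcbp, and the glypicans Gpc1, Gpc3, Gpc4 and Gpc6. They were chosen by exact gene symbol from the count tables, at a time when the footprint values of siCpeb4 against control cells were already known, among them the low values of Sdc4. Their differences between the groups are therefore a description of these 4 libraries, and no test is drawn from them. All 9 were found among 22250 genes, each under 1 gene identifier, and all 9 passed the low-count filter that left 11335 genes.

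There were 2 libraries of cells with CPEB4 siRNA, called siCpeb4, and 2 of cells with control siRNA. All came from ventricular cardiomyocytes of Wistar rats aged 1 to 2 days and were purified on a Percoll gradient. The siRNA, a short RNA that directs breakdown of the matching mRNA, acted for 72 h. The growth protocol also lists Torin1, an inhibitor of the kinase mTOR, at 250 nM for 24 h for every sample, without saying which cells received it. Ribosome-protected fragments were made from polysome fractions by digestion with RNase I, and the labels do not say whether replicates were separate cultures. The spread between replicates may thus be technical, and the values are footprint abundances in which mRNA level and ribosome loading cannot be told apart.

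A syndecan spans the membrane with a single helix, carries heparan sulfate chains on its outer part and ends in a short cytoplasmic tail. A glypican is instead tied to the outer leaflet by a glycosylphosphatidylinositol anchor and has a compact, cysteine-rich core. The sulfated sugar chains of both hold fibroblast growth factors, Wnt and Hedgehog proteins and matrix proteins such as fibronectin close to their receptors. In heart muscle, the syndecan encoded by Sdc4 sits at adhesion sites and at the Z-disc, and work in mice has tied it to calcineurin signalling under pressure load.

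Footprints counted in genes came to 4889212 and 5910911 in siCpeb4 replicates 1 and 2, against 5863879 and 3554011 in control replicates 1 and 2. Levels are given in CPM, the count of a gene per 1000000 gene counts of its library. The file of siCpeb4 replicate 2 is named for reads of 29 to 33 nt and the other 3 files for reads of 29 to 34 nt. Cpeb4 itself, the target, had 8.18 and 9.98 CPM in siCpeb4 cells, against 59.9 and 71.2 CPM in control cells. The 10 cardiomyocyte markers together made 82810.9 to 89000.4 CPM in siCpeb4 libraries and 78012.5 to 83033.5 CPM in control libraries, led by the cardiac actin Actc1 and the myosin Myh6. Of the 10, 7 had a negative log2 fold change of siCpeb4 over control (median -0.10), beside 50.5% of all genes tested. Actc1 (0.23) and Myh6 (0.15) were positive. Cells of other types were present as well, which is why their markers are given with the results.

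Sdc4 was the member with the largest fold difference. It had 39.3 and 44.3 CPM in siCpeb4 replicates 1 and 2, against 111 and 113 CPM in control replicates 1 and 2. Both siCpeb4 libraries lay far below both controls, and the distance between the groups was many times that between replicates. The means were 41.8 ± 3.57 CPM in siCpeb4 cells and 112 ± 1.44 CPM in control cells (SD, n = 2 each), from 192 and 262 counts in siCpeb4 libraries and 653 and 403 counts in control libraries. In the edgeR fit across all genes, the log2 fold change of siCpeb4 over control was -1.45 ± 0.12 (SE), with a 95% interval for the fold of 0.306 to 0.436. Of all genes tested, 0.176% had a lower log2 fold change, and Sdc4 ranked 4 by p. These places are description only, since Sdc4 was taken with its low values in view. The product of Sdc4 is the syndecan that gathers into focal adhesions, where its tail binds protein kinase C alpha and its sugar chains bind fibronectin.

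**Figure D1:**
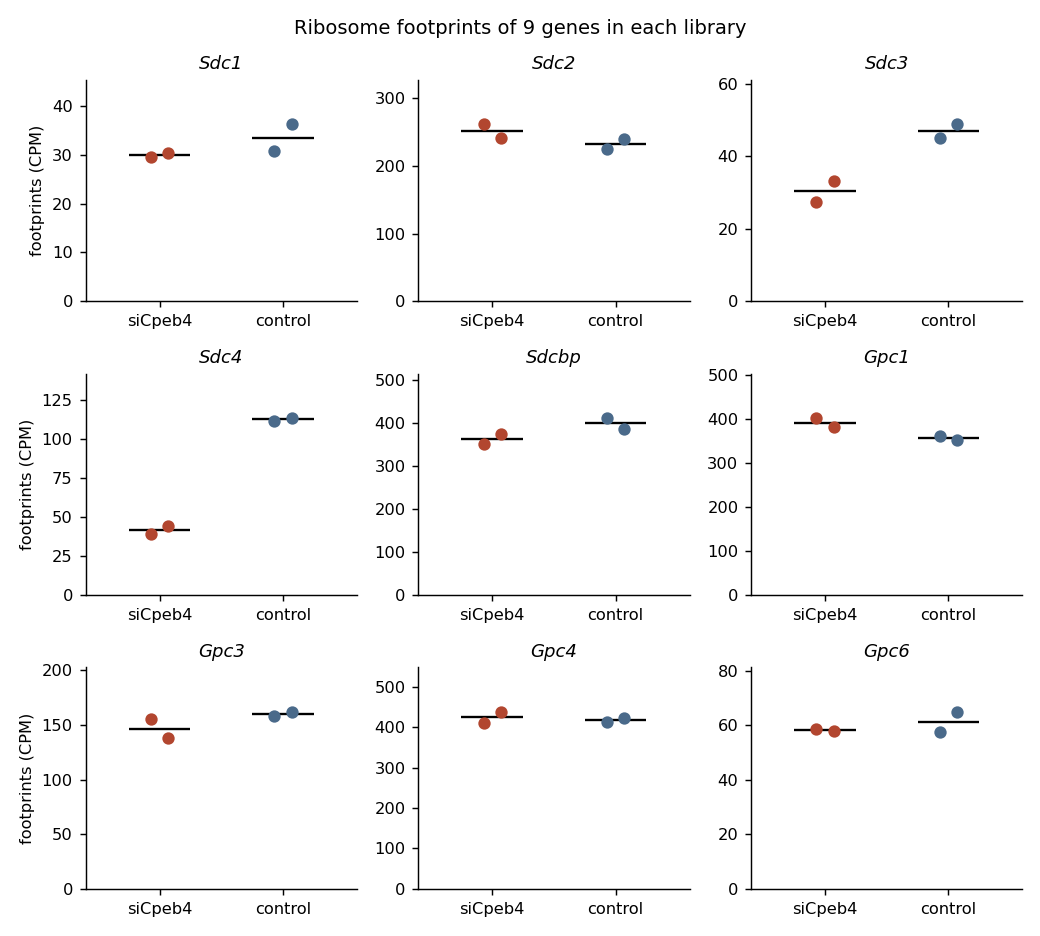
Ribosome footprints of each of the 9 genes, in counts per 1000000 gene counts (CPM, vertical axis from 0, own scale per gene), in the 2 siCpeb4 and the 2 control libraries. Points are libraries and the short line is the mean of the group; Sdc4 (39.3 and 44.3 CPM in siCpeb4 cells, 111 and 113 CPM in control cells) and Sdc3 (27.4 and 33.3 CPM in siCpeb4 cells, 45.0 and 49.0 CPM in control cells) show the widest gaps relative to their level.

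Sdc3 encodes a syndecan with a long extracellular part, best known from neurons and from muscle progenitor cells. It had 27.4 and 33.3 CPM in siCpeb4 replicates 1 and 2, against 45.0 and 49.0 CPM in control replicates 1 and 2. Both siCpeb4 libraries were again below both controls, at lower depth, with 134 and 197 counts in siCpeb4 libraries and 264 and 174 in control libraries. The log2 fold change was -0.65 ± 0.15 (SE), with a 95% interval for the fold of 0.516 to 0.789. Sdc3 did not reach the threshold for a call in DESeq2 (log2 fold change -0.66), nor in edgeR without siCpeb4 replicate 1 (-0.53) or without control replicate 2 (-0.58). For Sdc4, the log2 fold changes in the 13 alternative settings ran from -1.53 to -1.38.

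The other syndecans had smaller log2 fold changes. Sdc2, which encodes the syndecan typical of fibroblasts and other mesenchymal cells, had 262 and 242 CPM in siCpeb4 replicates 1 and 2, against 224 and 240.0 CPM in control replicates 1 and 2. The lower siCpeb4 library exceeded the higher control by under 2 CPM, less than the gap between replicates of either group. The log2 fold change of Sdc2 was 0.09 ± 0.11 (SE), and its 95% interval allowed a fold of 0.913 to 1.24. Sdc1, whose product is the main syndecan of epithelia and of plasma cells, had 29.5 and 30.5 CPM in siCpeb4 replicates 1 and 2, against 30.7 and 36.3 CPM in control replicates 1 and 2. The higher siCpeb4 value nearly touched the lower control, and the control replicates lay farther apart than the group means. With 129 to 180 counts per library, Sdc1 had a log2 fold change of -0.18 ± 0.16 (SE), and a fold of 0.706 to 1.11 lay within its 95% interval.

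Sdcbp encodes syntenin, a protein with PDZ domains that grips the last residues of the syndecan tails and links them to endosomal sorting and exosomes. It had 352 and 376 CPM in siCpeb4 replicates 1 and 2, against 413 and 387 CPM in control replicates 1 and 2. The nearest libraries of the 2 groups lay closer together than the replicates of either group. The log2 fold change was -0.17 ± 0.10 (SE), with a 95% interval for the fold of 0.772 to 1.03.

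Among the glypicans, no log2 fold change was as large as that of Sdc3 or Sdc4. Gpc1 encodes a glypican widespread in muscle and brain that binds fibroblast growth factors. It had 402 and 380 CPM in siCpeb4 replicates 1 and 2, against 361 and 351 CPM in control replicates 1 and 2. Both siCpeb4 libraries were above both controls, by a gap smaller than the one between the siCpeb4 replicates, and the log2 fold change was 0.11 ± 0.10 (SE), with a 95% interval for the fold of 0.933 to 1.24. Gpc4, a glypican gene active in many embryonic tissues, had 411 and 438 CPM in siCpeb4 replicates 1 and 2, against 412 and 422 CPM in control replicates 1 and 2. The groups overlapped, and the log2 fold change was -0.0027 ± 0.099 (SE), of either sign depending on the scaling (0.027 with library totals alone), with a 95% interval for the fold of 0.866 to 1.15.

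Gpc3 encodes the glypican that restrains Hedgehog signalling and is mutated in a human overgrowth syndrome. It had 155 and 138 CPM in siCpeb4 replicates 1 and 2, against 158 and 162 CPM in control replicates 1 and 2. The siCpeb4 libraries were lower, but replicate 1 came within 3 CPM of the lower control. Its log2 fold change was -0.16 ± 0.11 (SE), and the 95% interval for the fold was 0.764 to 1.05. Gpc6, whose human counterpart is needed for growth of long bones, had 58.7 and 57.9 CPM in siCpeb4 replicates 1 and 2, against 57.6 and 65.0 CPM in control replicates 1 and 2. Its groups overlapped, and the log2 fold change was -0.10 ± 0.13 (SE), with a 95% interval for the fold of 0.779 to 1.12. Of the glypican genes outside the 9, Gpc2 was barely covered, with 9 and 11 counts in siCpeb4 libraries and 14 and 7 counts in control libraries. Gpc5 was not found under that symbol among the genes counted.

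**Figure D2:**
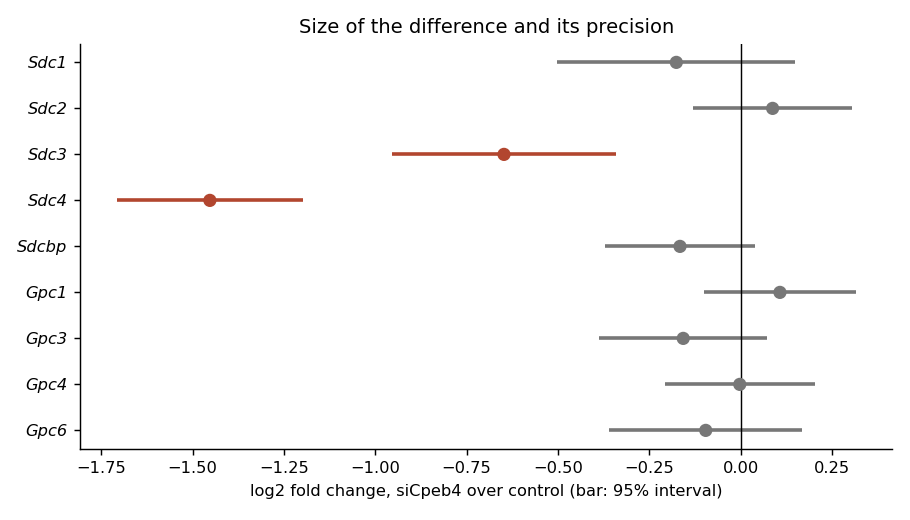
Log2 fold change of siCpeb4 over control for each of the 9 genes (points) with its 95% interval from the edgeR fit across all genes (bars). The 2 genes past the threshold (red) are Sdc4 at -1.45 and Sdc3 at -0.65, and the intervals of the other 7 (grey) include 0.

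Of the 9 genes, 2 were called lower and 0 higher at an adjusted p under 0.05 in edgeR's quasi-likelihood test (0 higher also by DESeq2 and limma-voom), where 1.87% of the genes tested were called lower, 1.54% higher and 3.41% in either direction. The groups did not overlap for 5 genes that were lower in siCpeb4 cells (19.5% of all genes tested) and for 2 that were higher (26.5%). The median log2 fold change was -0.16 over the 9 genes and -0.0031 over all genes tested. Since the genes were taken with these values in view, nothing is read from these shares. Counts per library ran from 129 for Sdc1 to 2591 for Gpc4, so that counting alone gives a relative error of 8.80% at the lowest and 1.96% at the highest of them.

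The makeup of the syndecan footprints differed between the groups, with smaller parts for Sdc4 and Sdc3 and a larger one for Sdc2. Sdc4 made up 11.0% and 12.7% of all syndecan footprints in siCpeb4 replicates 1 and 2, against 27.1% and 25.8% in control replicates 1 and 2. The share of Sdc2 was 73.1% and 69.1% in siCpeb4 libraries and 54.5% and 54.7% in control libraries. Shares are parts of a whole, so a smaller Sdc4 part by itself enlarges the rest. The log2 fold change of Sdc2 itself was 0.09 ± 0.11 (SE). Summed over the 4 genes, syndecan footprints came to 354 ± 5.68 CPM in siCpeb4 cells and 425 ± 19.2 CPM in control cells (SD, n = 2 each). Without Sdc4, the sums were 318 and 305 CPM in siCpeb4 libraries and 300.1 and 325 CPM in control libraries, and these overlapped. Most of these sums was Sdc2, so they say little of Sdc3. The shares are of footprints and are not set per length, since coding lengths were not used here. They can be compared between groups, but do not rank the proteins by amount.

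The glypicans kept nearly the same makeup. Their footprints summed to 1021 ± 9.17 CPM in siCpeb4 cells and 994 ± 8.18 CPM in control cells (SD, n = 2 each). Gpc4 held 41.6% ± 2.26 of them in siCpeb4 cells and 41.9% ± 0.349 in control cells, and Gpc1 held 38.3% ± 1.15 in siCpeb4 cells and 35.8% ± 0.960 in control cells (SD, n = 2 each). Gpc3 made up 15.1% and 13.6% in siCpeb4 replicates 1 and 2, against 16.0% and 16.2% in control replicates 1 and 2. Gpc6 was the smallest part, at 5.71% and 5.70% in siCpeb4 libraries and 5.83% and 6.50% in control libraries.

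**Figure D3:**
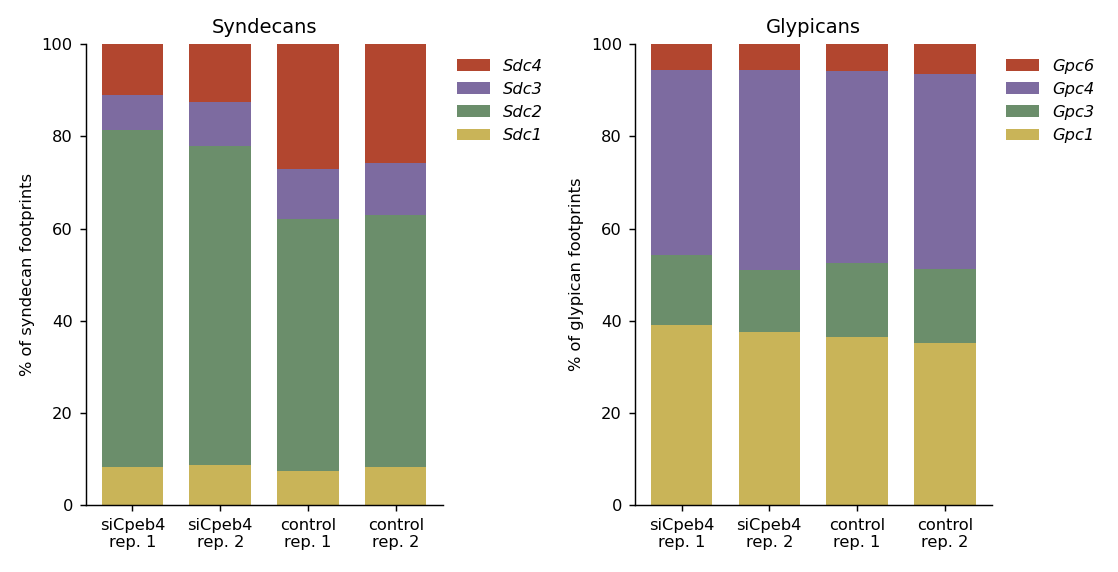
Share of each gene in the footprints of its family (percent, stacked to 100) in the 2 siCpeb4 and the 2 control libraries, for 4 syndecans (left) and 4 glypicans (right). The Sdc4 segment is 11.0% and 12.7% in siCpeb4 libraries and 27.1% and 25.8% in control libraries, while the glypican segments have similar heights in all 4.

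Of 9 fibroblast markers tested, 7 had a negative log2 fold change, beside 50.5% of all genes tested. The median of these markers was -0.25, and 1 was called lower, the collagen gene Col1a1 (-0.55 ± 0.11 SE, edgeR adjusted p = 0.00339). Their summed level was 9257.8 to 9794.4 CPM in siCpeb4 libraries and 12143.5 to 13170.5 CPM in control libraries, most of it from Col1a1. The receptor gene Pdgfra had 34.0 and 36.2 CPM in siCpeb4 libraries, against 43.1 and 43.1 CPM in control libraries. Tcf21, a transcription factor gene of cardiac fibroblasts, had 21.3 and 21.8 CPM in siCpeb4 libraries, against 18.2 and 21.7 CPM in control libraries. Col1a2, a defining fibroblast gene, is listed at 0 in all 4 libraries. The part of fibroblast content in the Sdc4 and Sdc3 values was not tested. In bulk cultures, fewer cells of a type and fewer footprints per cell cannot be told apart.

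The other marker lists held 0 calls by edgeR, with 5 unadjusted p under 0.05 when the cardiomyocyte list is included. Of their genes, DESeq2 called 0 and limma-voom 1, an epicardial and mesothelial marker. Over all 11335 genes tested, 1824 had an unadjusted edgeR p under 0.05, and 50.5% had a negative log2 fold change. Endothelial markers summed to 136 to 145 CPM in siCpeb4 libraries and 135 to 166 CPM in control libraries, and 6 of 7 were negative. Macrophage and leukocyte markers summed to 502 to 532 CPM in siCpeb4 libraries and 418 to 587 CPM in control libraries, with 2 of 8 negative. Smooth muscle and pericyte markers came to 958 to 986 CPM in siCpeb4 libraries and 1000.4 to 1027.8 CPM in control libraries. Epicardial and mesothelial markers came to 288 to 321 CPM in siCpeb4 libraries and 355 to 373 CPM in control libraries, and 4 of 5 were negative. Their part in the results was not tested.

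Of the genes next to Sdc4 on the chromosome, 1 was tested, and it was not called. In the RefSeq order of assembly GRCr8, the protein-coding genes beside Sdc4 are Rbpjl, with 3 counts over all libraries, and Sys1, with a log2 fold change of -0.09 ± 0.19 (SE; edgeR adjusted p = 0.88). No protein-coding gene overlaps Sdc3 or Sdc4 in that annotation. Gpc1 overlaps Ankmy1 there, which had 10 counts over all libraries.

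With uncharacterised gene names skipped, the genes whose profile over the 4 libraries was most like that of Sdc4 were Kpna1, Cd9, Dazap2, Cckbr and Nab1. Likeness was the Euclidean distance between log2 CPM values centred on each gene, here scaled as in the edgeR fit. It ranged from 0.161 for Kpna1 to 0.245 for Nab1. Kpna1, an importin alpha gene, had 27.0 and 29.3 CPM in siCpeb4 libraries, against 73.7 and 67.2 CPM in control libraries. Cd9, a tetraspanin gene, had 99.2 and 96.6 CPM in siCpeb4 libraries, against 262 and 235 CPM in control libraries. Dazap2 had 62.2 and 60.7 CPM in siCpeb4 libraries and 143 and 159 CPM in control libraries. Nab1, which encodes a corepressor of EGR transcription factors, had 12.5 and 11.7 CPM in siCpeb4 libraries and 28.6 and 31.0 CPM in control libraries. Cckbr, a gastrin receptor gene, rested on few footprints, with 1.02 and 1.18 CPM in siCpeb4 libraries and 2.90 and 3.38 CPM in control libraries. A profile over 4 libraries of 2 groups mainly ranks genes by the size of the difference.

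Around these proteoglycans, 9 gene lists cover their partners, from chain synthesis to shedding. They hold 173 genes, of which 164 were found and 141 were tested. Of these, 5 were called lower and 1 higher, or 4.26%, beside 3.41% of all genes tested. Their median log2 fold change was -0.01, and 72 of the 141 were negative, beside 50.5% of all genes tested. Over the alternatives, 4 to 9 were called lower and 0 to 4 higher. The called genes were the co-receptor gene Nrp1, the ligand genes Fn1, Tnc, Slit3 and Fgf16, and the protease gene Adam10.

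Enzymes that build the chains held 0 calls by edgeR in either direction. In the 6 lists with 0 calls, 15 genes had an unadjusted edgeR p under 0.05, and DESeq2 and limma-voom called 0 as well. Calls in the other alternatives were not split by list. Over all 11335 genes tested, 1824 had an unadjusted edgeR p under 0.05, the background for this count and for those of single lists. Of 9 genes for the linker that joins chain and core protein, 0 were called and 1 was negative (median log2 fold change 0.13). Xylt1 was the 1 gene of this list with an unadjusted edgeR p under 0.05 (0.97 ± 0.27 SE, edgeR adjusted p = 0.052). It had 15.1 and 11.2 CPM in siCpeb4 libraries, against 6.99 and 5.91 CPM in control libraries, from 21 to 74 counts per library. The most abundant genes of this list were Ugdh, which makes the glucuronic acid donor, and Uxs1, which makes the xylose donor. Ugdh and Uxs1 had log2 fold changes of 0.04 ± 0.15 and 0.10 ± 0.14 (SE). Of 19 genes that polymerise and modify heparan sulfate, 0 were called and 3 had an unadjusted edgeR p under 0.05 (median 0.03). The polymerase subunit gene Ext2 had 156 ± 10.5 CPM in siCpeb4 cells and 159 ± 1.78 CPM in control cells (SD, n = 2 each). Sulf2, which encodes an enzyme that trims sulfate from finished chains, had 249 ± 9.71 CPM in siCpeb4 cells and 219 ± 14.2 CPM in control cells (SD, n = 2 each; edgeR adjusted p = 0.50).

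Of 15 genes for chondroitin and dermatan sulfate, the chains that some syndecans also carry, 0 were called and 1 had an unadjusted edgeR p under 0.05 (median 0.09). Chpf and Chsy1, which build chondroitin, had log2 fold changes of 0.03 ± 0.13 and 0.11 ± 0.14 (SE). Of 6 genes of lysosomal and extracellular heparan sulfate degradation, 0 were called by edgeR, and 0 had an unadjusted p under 0.05 (median 0.06). Idua, the lysosomal iduronidase gene, had a log2 fold change of -0.08 ± 0.13, and Gusb, the glucuronidase gene, one of 0.21 ± 0.14 (SE).

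Among 12 genes of shedding and anchor release, 1 was called higher, beside 1.54% of all genes tested. Adam10 encodes a membrane protease that cuts the outer part off syndecans and many other surface proteins. It had 244 and 278 CPM in siCpeb4 replicates 1 and 2, against 183 and 176 CPM in control replicates 1 and 2, and both siCpeb4 libraries were above both controls. The log2 fold change was 0.51 ± 0.11 (SE; edgeR adjusted p = 0.00705), and it was higher in 2 of 2 siCpeb4 libraries. The call ended without siCpeb4 replicate 2 (edgeR adjusted p = 0.0555) or without control replicate 2 (edgeR adjusted p = 0.0723), within a range of 0.000488 to 0.0723 over all alternatives. The metalloproteases Mmp2 (-0.06 ± 0.10) and Mmp14 (-0.07 ± 0.11), which also shed syndecans, and Adam17 (-0.05 ± 0.13 SE) were not called, and Adam17 is named because it is the other well-known sheddase.

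Other proteoglycans and co-receptors included 1 gene called lower among 7 tested, beside 1.87% of all genes tested. Nrp1 encodes neuropilin, a co-receptor for vascular endothelial growth factor and semaphorins that can carry a sugar chain itself. It fell to 312 and 321 CPM in siCpeb4 replicates 1 and 2, against 535 and 539 CPM in control replicates 1 and 2. The replicates lay close together and the groups were well apart, with a log2 fold change of -0.79 ± 0.10 (SE; edgeR adjusted p = 3.64e-05). The call held in each of the 13 alternative settings, with adjusted p from 3.80e-11 to 0.00118. Col18a1, a basement membrane proteoglycan gene, had a log2 fold change of -0.10 ± 0.11, and Tgfbr3, which encodes the co-receptor betaglycan, one of 0.05 ± 0.11 (SE). The median of this list was -0.29, with 6 of 7 negative, beside 50.5% of all genes tested. Among the negative ones, Cd44 (-0.44 ± 0.12 SE, edgeR adjusted p = 0.055) and Spock2 (-0.68 ± 0.22 SE, edgeR adjusted p = 0.092) were not called. Gpc2, also negative, rested on 7 to 14 counts per library. Gpc5 and Hspg2, which were on this list too, were not found by symbol.

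Of 22 genes for ligands that bind heparan sulfate, 4 were called lower and 0 higher, beside 1.87% and 1.54% of all genes tested. The median was -0.07, and 14 of the 22 were negative. Wnt5a was higher in siCpeb4 cells but not called (0.68 ± 0.19 SE, edgeR adjusted p = 0.052). It had 25.6 and 34.9 CPM in siCpeb4 libraries, against 20.5 and 16.0 CPM in control libraries. Fn1, the fibronectin gene, had 2358.5 and 2995.0 CPM in siCpeb4 replicates 1 and 2, against 4559.3 and 3947.6 CPM in control replicates 1 and 2, a log2 fold change of -0.70 ± 0.11 (SE; edgeR adjusted p = 0.000687). Tnc, the tenascin gene whose product modulates adhesion through syndecans, had 269 and 306 CPM in siCpeb4 libraries, against 476 and 413 CPM in control libraries (-0.66 ± 0.11 SE; edgeR adjusted p = 0.000609). In both genes the groups did not overlap, and the calls held in all 13 alternative settings, with adjusted p of at most 0.0226 for Fn1 and 0.0155 for Tnc. The part of the fibroblast markers given above in the Fn1 and Tnc values was not tested.

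Slit3 encodes a secreted guidance protein that signals through Robo receptors, with heparan sulfate as a cofactor. It had 40.5 and 48.0 CPM in siCpeb4 libraries, against 69.6 and 63.6 CPM in control libraries (-0.62 ± 0.13 SE; edgeR adjusted p = 0.00864). Fgf16, a fibroblast growth factor gene of heart muscle, had 8.18 and 6.09 CPM in siCpeb4 libraries, against 14.0 and 15.8 CPM in control libraries (-1.09 ± 0.26 SE; edgeR adjusted p = 0.0173). Without 1 library these calls could end. The edgeR adjusted p was 0.067 for Slit3 without siCpeb4 replicate 1 and 0.106 without control replicate 1, in a range from 0.000654 to 0.106 over all alternatives. It was 0.170 for Fgf16 without siCpeb4 replicate 2 and 0.0882 without control replicate 2, in a range from 0.000965 to 0.170. The abundant ligand genes Thbs1 (-0.28 ± 0.11 SE) and Lpl (-0.30 ± 0.10 SE) were not called, with edgeR adjusted p of 0.21 and 0.11. Thbs1 passed without the low-count filter (edgeR adjusted p = 0.0461) and with the crossed pairing of replicates as a block (edgeR adjusted p = 0.0163), in a range up to 0.78 over all alternatives. Its log2 fold change ran from -0.46 to -0.12 with 1 library left out.

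**Figure D4:**
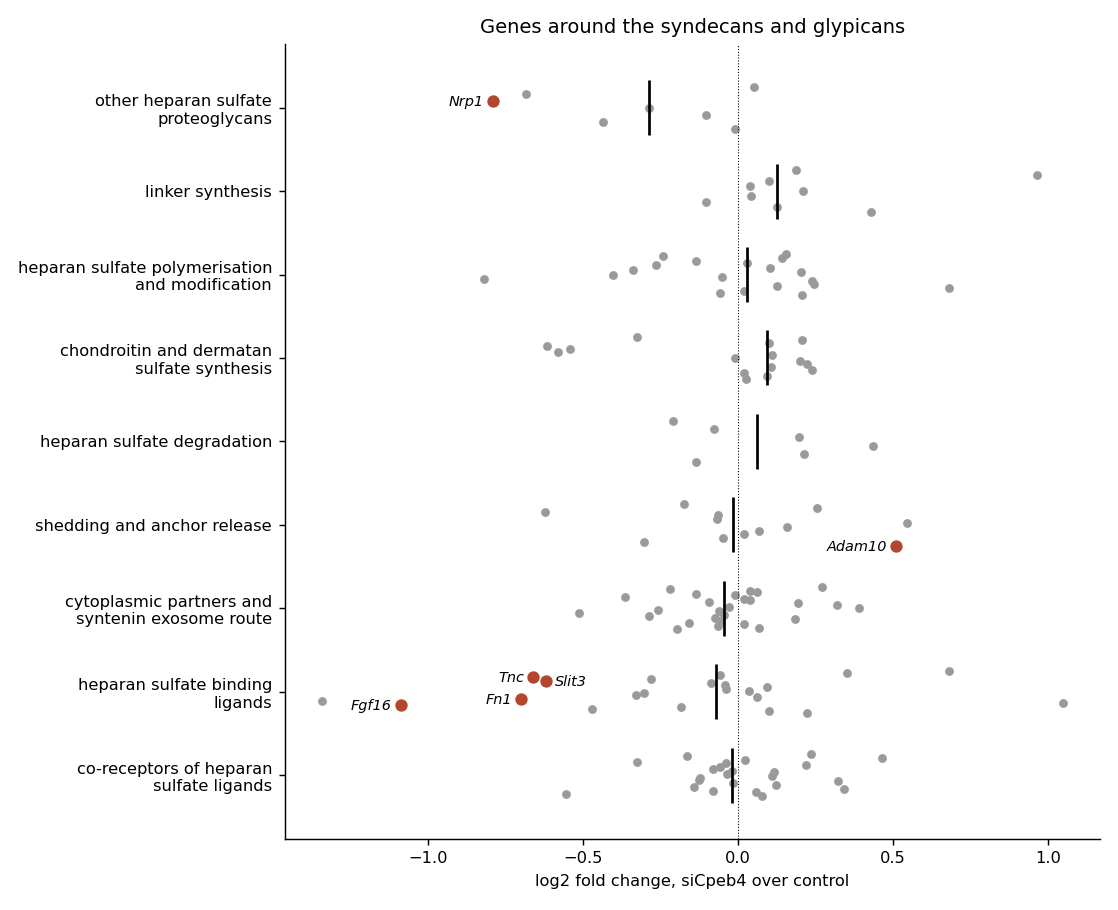
Log2 fold change of siCpeb4 over control for the tested genes of 9 lists around the proteoglycans (points, 1 per gene; vertical bars are list medians). Named red points passed an adjusted p under 0.05 over all genes tested: Nrp1, Fgf16, Fn1, Slit3 and Tnc lower and Adam10 higher, with list medians between -0.29 and 0.13.

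On the receptor side, 24 genes for receptors that share ligands with heparan sulfate held 0 calls by edgeR, and 4 had an unadjusted p under 0.05 (median -0.02). Itgb1, the integrin subunit that works beside the Sdc4 product on fibronectin, had 2384 ± 186 CPM in siCpeb4 cells and 2368 ± 165 CPM in control cells (SD, n = 2 each). Cd81, a tetraspanin gene whose product binds the Gpc3 product, had 1803 ± 60.4 CPM in siCpeb4 cells and 1675 ± 80.2 CPM in control cells (SD, n = 2 each). Of 27 genes for cytoplasmic partners of the syndecans and for the syntenin exosome route, 0 were called by edgeR and 6 had an unadjusted p under 0.05 (median -0.04). Among these, the adhesion proteins vinculin (Vcl, 0.04 ± 0.10 SE) and alpha-actinin (Actn4, 0.07 ± 0.10 SE) had the most footprints.

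**Figure D5:**
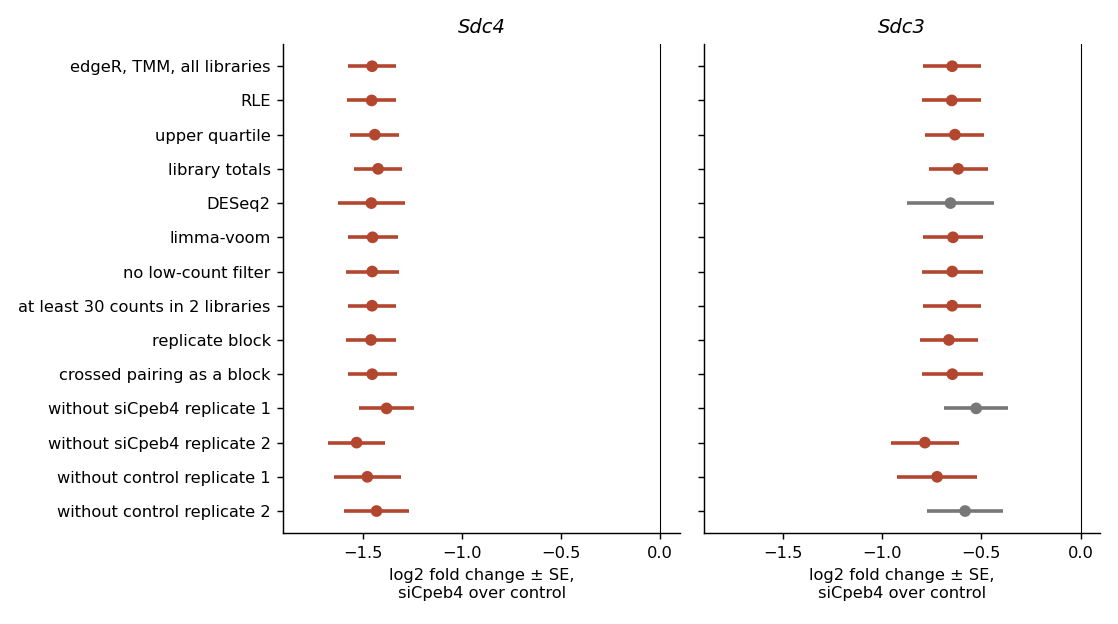
Log2 fold change of siCpeb4 over control (points) with its standard error (bars) for Sdc4 (left) and Sdc3 (right) under 14 settings of scaling, test, filter, design and left-out library. Sdc4 stays between -1.53 and -1.38; grey marks the 3 settings in which Sdc3 was not past the threshold, where its values were -0.66, -0.53 and -0.58.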

How the data were processed

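The authors deposited raw footprint counts per Ensembl gene, 1 file per library, with no normalisation. The submitters' processing notes name HTSeq 0.12, STAR 2.7, Bowtie2 and the assembly Rnor_6.0; roles and strand setting are not given in the sources used here. File names state uniquely mapped reads, so near-identical copies and overlapping genes are uncertain. The 5 summary rows were left out; reads without a feature made up 4.42% to 4.63% of each library.

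CPM values were scaled to library totals, except for the profiles compared with Sdc4, which used the TMM scaling of the edgeR fit. Tests used edgeR 4.0.16 in R 4.3.3 (quasi-likelihood F-test, TMM, filterByExpr with minimum count 10, group as the only term, two-sided, Benjamini-Hochberg over 11335 genes, called at adjusted p under 0.05). The SE was derived from the F statistic. DESeq2 1.42.0 and limma-voom (limma 3.58.1) were alternatives, with other scalings, filters, blocks and left-out libraries. Replicates differed by more than sampling noise (chi-square per degree of freedom 5.12 in siCpeb4, 2.91 in control).

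The members and gene lists were chosen with earlier results of these data known. Named were the 9 members, Cpeb4, in each list the called genes (up to 6 by smallest p) and the 2 most abundant uncalled ones, 5 genes most like Sdc4 (prior count 2, uncharacterised names skipped), and leading markers. Sys1, Rbpjl and Ankmy1 are named as neighbours. Adam17, Pdgfra, Tcf21, Xylt1, Wnt5a, Cd44 and Spock2 are named beyond the rule, after their values were seen. Levels per coding length were planned but not computed, since no coding lengths were used here.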

Additional observations from a re-analysis of the deposited data

How the results depend on the processing

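Among 9 members and 13 alternatives, 110 of the values kept direction and side of the threshold. The count of members called was 2 lower and became 1 in DESeq2 and 1 to 2 with a library left out, Sdc3 being the one lost. Over all genes, 212 lower and 174 higher became 115 and 77 in DESeq2, 163 and 185 with library totals and 199 and 196 with upper-quartile scaling, and 352 were lower without the low-count filter; with a library left out, 133 to 185 were lower and 79 to 133 higher. In the lists around the proteoglycans, 5 lower and 1 higher became 9 and 4 without the filter, 3 were higher with upper-quartile scaling, and 0 to 2 were higher and 4 to 7 lower with a library left out. With the replicate number as a block, 224 genes were lower and 179 higher, and in these lists 2 were higher. Deviations of same-numbered libraries correlated across genes at r = -0.11, so the numbers were not taken to pair the libraries. The crossed pairing, added after seeing the data, called 279 lower and 202 higher, 8 and 4 of them in the lists. Neither block changed the count of members called.

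Genes near 0 changed sign. Gpc4 was 0.011 with upper-quartile scaling and 0.027 with library totals, and Itgb1 was 0.0093 with library totals. With a library left out, log2 fold changes ran from -0.035 to 0.033 for Gpc4, -0.088 to 0.047 for Itgb1, -0.27 to 0.11 for Idua, -0.195 to 0.0023 for Col18a1, -0.0067 to 0.121 for Tgfbr3, -0.27 to 0.284 for Ugdh, -0.0082 to 0.085 for Vcl, -0.196 to 0.082 for Mmp14, -0.125 to 0.173 for Chpf and -0.030 to 0.286 for Uxs1. The cause of these changes was not tested. The median of all genes moved by at most 0.03 between scalings. A group left with 1 library borrows its spread from the other group. DESeq2 gave no adjusted p for Fgf16. Levels per coding length, and their alternatives, were not run. Counting error is larger for genes with few footprints, such as Cckbr with 5 to 17 counts per library.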
